A study of Mus musculus with 2 samples.

Results

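The genes described here are the 8 immunoglobulin constant genes Ighm, Ighd, Igha, Ighg1, Ighg2b, Ighg2c, Ighg3 and Igkc, together with Jchain. They were taken by gene symbol from both count matrices and are 9 of the 32285 genes listed there. Transcript counts (unique molecular identifiers, UMIs) were measured in single liver non-parenchymal cells captured with 10x Genomics v3 chemistry after collagenase digestion. The study set livers whose hepatocytes were engineered to make more adenosine kinase, the enzyme that phosphorylates adenosine, against control livers. There were 2 libraries, 1 per group: Hep-ADKTg mice, in which the albumin promoter drives an adenosine kinase transgene in hepatocytes, and Hep-ADKWT mice, the genotype controls. Both groups were male, 5 months old and on standard chow, with no drug or dietary treatment. The labels speak of a mouse for each library and do not say whether cells were pooled or which part of the adenosine kinase transcript the transgene carries.

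An antibody pairs heavy chains with light chains, and the heavy chain constant gene in use sets its class. Naive B cells splice 1 heavy chain transcript to both Ighm and Ighd, and class switching replaces these with a gene further along the locus for an IgG or IgA antibody. Plasma cells, which secrete antibody, devote a large part of their mRNA to these genes, and the J chain joins IgM and IgA subunits into polymers. The liver receives blood from the gut, and the polymeric Ig receptor of mouse hepatocytes carries polymeric IgA into bile.

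The Hep-ADKTg library held 96481752 UMIs in 17462 barcodes and the Hep-ADKWT library 97135016 UMIs in 15663. After filtering, 14449 Hep-ADKTg cells and 12482 Hep-ADKWT cells were kept, with medians of 2785 and 4807 UMIs per cell. The libraries shared 88 barcodes, 58 of them among kept cells, and none of these was a plasma cell-like cell. Hepatocyte-like cells made up 4928 of the kept Hep-ADKTg cells and 265 of the kept Hep-ADKWT cells, so shares of all kept cells have unlike denominators. Adk, the targeted gene, stood at 537 CPM (the UMIs of a gene over all UMIs of the class, on the usual CPM scale; 95% interval 529–544) in hepatocyte-like cells of the library labelled Hep-ADKTg and at 471 CPM (449–495) in those of the library labelled Hep-ADKWT. That is a log2 ratio of 0.19 (0.11–0.26). Within the 2 hepatocyte-like clusters that both libraries filled with at least 50 cells, the log2 ratio of Adk was 0.05 (−0.24–0.36) and 0.21 (0.13–0.29). Whether transcripts of the transgene are counted as Adk could not be checked. Genotype, animal, cell preparation and library are 1 division of the data and cannot be told apart, so no test across animals was possible. All intervals cover counting error only.

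Cell classes were built without any immunoglobulin gene or Jchain and named from markers. Plasma cell-like cells were 1 cluster of 52 Hep-ADKTg and 292 Hep-ADKWT cells. Sec11c and Txndc5, which act in the secretory pathway, were detected in 100% of the Hep-ADKTg cells and 99.3% of the Hep-ADKWT cells. Prdm1, the plasma cell regulator, was detected in 80.8% of the Hep-ADKTg cells and 83.2% of the Hep-ADKWT cells. B cell-like cells numbered 1234 in Hep-ADKTg and 2072 in Hep-ADKWT. Cd79a, a signalling subunit of the B cell receptor, was detected in 98.9% of the Hep-ADKTg B cell-like cells and 99.2% of the Hep-ADKWT ones. The B cell-like cells of the libraries fell mostly in different clusters: one cluster held 1177 Hep-ADKTg and 150 Hep-ADKWT cells, another held 7 and 1918, and the last held 50 and 4. Plasma cell-like cells held 86.8% of the UMIs of the 9 genes in kept Hep-ADKTg cells and 88.7% in kept Hep-ADKWT cells, although they were 0.360% and 2.34% of the kept cells. B cell-like cells held 7.83% of these UMIs in Hep-ADKTg and 3.72% in Hep-ADKWT.

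The 7 heavy chain constant genes lie on the minus strand of chromosome 12, from Ighm (chr12:113418558-113422730, GRCm38) through Ighd (chr12:113406604-113416324), Ighg3 (chr12:113356224-113361232), Ighg1 (chr12:113325240-113330523), Ighg2b (chr12:113302965-113307933) and Ighg2c (chr12:113285325-113288932) to Igha (chr12:113254830-113260236). Igkc, the kappa light chain constant gene, is at chr6:70726435-70726966 on the plus strand, and Jchain at chr5:88519809-88527891 on the minus strand. The last coding bases of the secreted heavy chain forms are given because they separate the classes that the J chain joins from those it does not: the IgM and IgA chains end in a tail whose penultimate codon encodes a cysteine, the residue that binds the J chain. Each line gives the last 66 coding bases with the stop codon, from GENCODE M21 transcripts of GRCm38, read 5′ to 3′ on the minus strand, and capitals mark the penultimate codon. The stretches are Ighm at chr12:113420867-113420932, Igha at chr12:113258768-113258833, Ighg1 at chr12:113328976-113329041, Ighg2b at chr12:113306389-113306454, Ighg2c at chr12:113287389-113287454 and Ighg3 at chr12:113359665-113359730.
Ighm: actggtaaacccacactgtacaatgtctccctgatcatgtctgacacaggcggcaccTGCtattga
Igha: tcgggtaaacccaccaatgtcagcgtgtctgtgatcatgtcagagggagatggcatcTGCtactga
Ighg1: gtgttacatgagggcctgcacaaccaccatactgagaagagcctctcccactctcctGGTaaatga
Ighg2b: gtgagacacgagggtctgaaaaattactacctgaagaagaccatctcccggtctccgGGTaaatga
Ighg2c: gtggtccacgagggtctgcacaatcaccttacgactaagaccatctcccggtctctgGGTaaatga
Ighg3: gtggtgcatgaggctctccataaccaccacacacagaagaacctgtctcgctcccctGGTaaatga
The codon was TGC, for cysteine, in Ighm and Igha and GGT, for glycine, in the 4 IgG genes. Over the whole coding sequence, Ighg2b and Ighg2c shared 85.9% of aligned bases with an identical run of 78 bases. The other IgG pairs shared 75.8% to 77.7% with runs of at most 41 bases. Ighm and Igha shared 54.9% to 65.1% with the 4 IgG genes and with each other, with runs of at most 14 bases. Ighd was not aligned. How the authors' counting treated reads that match several of these genes was not tested, so counts of the IgG genes, and of Ighg2b and Ighg2c above all, are uncertain to that extent.

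Plasma cell-like cells of the 2 libraries used different heavy chain classes. IgM was the most frequent class in Hep-ADKTg and IgA in Hep-ADKWT. A cell was assigned the class with most of its heavy chain constant UMIs, given at least 3 of them and a share of at least 0.6 for that class, with Ighm and Ighd counted as 1 class. This called 51 of 52 Hep-ADKTg cells and 288 of 292 Hep-ADKWT cells, and the leading class held a median of 99.97% and 99.5% of a cell's heavy chain UMIs.

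IgM cells numbered 24 of 51 in Hep-ADKTg (47.1%, 95% Clopper-Pearson interval 32.9–61.5) and 18 of 288 in Hep-ADKWT (6.25%, 3.75–9.70). IgA cells numbered 15 of 51 in Hep-ADKTg (29.4%, 17.5–43.8) and 231 of 288 in Hep-ADKWT (80.2%, 75.1–84.7). The intervals of the libraries do not overlap for either class. They take the cells of a library as independent and do not cover the spread between animals. Some IgA cells had a V gene, for the antigen-binding end, called for both the heavy and the light chain. Of these, 3 of 7 in Hep-ADKTg and 11 of 80 in Hep-ADKWT shared their pair of V genes with another such cell. Whether such cells stem from the same parent cell was not tested. IgG2b cells numbered 7 in Hep-ADKTg (13.7%, 5.70–26.3) and 24 in Hep-ADKWT (8.33%, 5.41–12.1). IgG2c, the class that stands in for IgG2a in C57BL/6-related strains, led in 5 Hep-ADKTg cells (9.80%, 3.26–21.4) and 12 Hep-ADKWT cells (4.17%, 2.17–7.17). For both of these IgG classes the intervals overlap. IgG1 led in 0 Hep-ADKTg cells and 2 Hep-ADKWT cells, and IgG3 in 0 and 1. A count of 0 among 51 cells allows a share of up to 5.88% by the floor of 3 counts, and of up to 6.98% by the Clopper-Pearson interval.

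The number of IgM cells per kept cell was close between the libraries, with a Hep-ADKTg over Hep-ADKWT ratio of 1.15 (0.599–2.25). The same ratio was 0.0561 (0.0309–0.0945) for IgA cells, which were 17.8-fold lower in Hep-ADKTg. It was 0.252 (0.0917–0.603) for IgG2b cells and 0.360 (0.0993–1.10) for IgG2c cells. Set against B cell-like cells, which leaves out the unlike hepatocyte numbers, there were 4.21 plasma cell-like cells per 100 B cell-like cells in Hep-ADKTg and 14.1 in Hep-ADKWT. IgM cells stood at 1.94 per 100 B cell-like cells in Hep-ADKTg and 0.869 in Hep-ADKWT. IgA cells stood at 1.22 per 100 in Hep-ADKTg and 11.1 in Hep-ADKWT. The lower number of plasma cell-like cells in Hep-ADKTg was thus mostly a lower number of IgA cells.

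**Figure D1:**
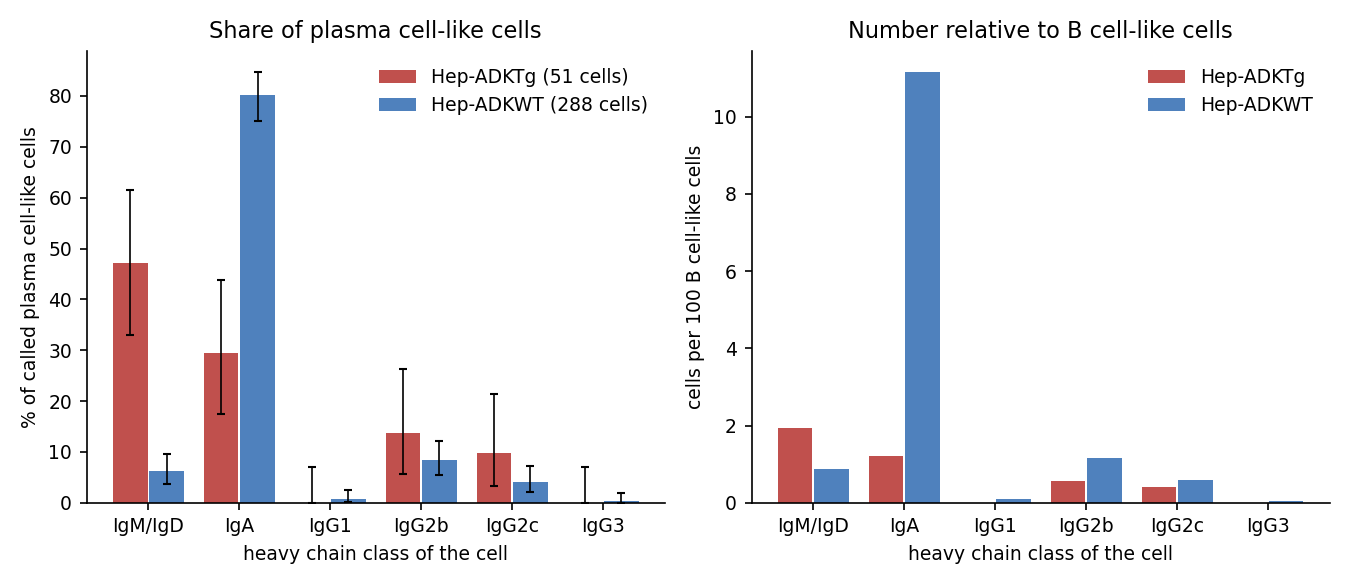
Heavy chain class of plasma cell-like cells: left, percent of the called cells of each library with 95% Clopper-Pearson intervals, and right, number of cells of each class per 100 B cell-like cells. IgA takes 29.4% of the Hep-ADKTg cells and 80.2% of the Hep-ADKWT cells, and IgM/IgD 47.1% and 6.25%.

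The summed transcripts of the class showed the same difference at the level of each gene. Ighm, the IgM heavy chain, stood at 45814 CPM (45431–46199) in Hep-ADKTg and 6789 CPM (6734–6844) in Hep-ADKWT, a log2 ratio of 2.75. Igha, the IgA heavy chain, stood at 22726 CPM (22457–22998) in Hep-ADKTg and 60303 CPM (60140–60466) in Hep-ADKWT, a log2 ratio of −1.41. A UMI of Igha was found in 50% of the Hep-ADKTg cells and 95.5% of the Hep-ADKWT cells, more than were called IgA in either library.

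Ighd, whose transcripts mark B cells before they mature into plasma cells, stood at 5.01 CPM (1.84–10.9) in Hep-ADKTg and 36.9 CPM (33.0–41.2) in Hep-ADKWT. Ighg2b reached 19144 CPM in Hep-ADKTg and 9201 CPM in Hep-ADKWT, a log2 ratio of 1.06. Ighg2c reached 14973 CPM in Hep-ADKTg and 3891 CPM in Hep-ADKWT, a log2 ratio of 1.94. These IgG levels rest on 7 and 5 called cells in Hep-ADKTg. Ighg1 stood at 24.2 CPM (16.2–34.8) in Hep-ADKTg and 247 CPM (237–258) in Hep-ADKWT, and Ighg3 at 27.6 CPM (19.0–38.7) in Hep-ADKTg and 173 CPM (164–182) in Hep-ADKWT. The libraries hold 0 and 3 cells called IgG1 or IgG3, in Hep-ADKTg and Hep-ADKWT.

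All 9 genes had at least 50 UMIs in the class. At least 2-fold higher in Hep-ADKTg were 3 of 9, against 2.72% of the 8321 genes with at least 50 UMIs. At least 2-fold lower were 4 of 9, against 24% of those genes. The median log2 ratio of all genes in the class was −0.58 on all UMIs. Immunoglobulin and Jchain UMIs were 51.5% of these in Hep-ADKTg and 35.9% in Hep-ADKWT. On the remaining UMIs the median of the other genes was −0.17. There 317 of 8221 genes were at least 2-fold higher in Hep-ADKTg and 912 at least 2-fold lower. The counts of the 9 genes and the shares beside them are on all UMIs, so they rest on that denominator. The Igha ratio was −1.005 on the UMIs that are not immunoglobulin or Jchain, −0.85 with TMM factors and −0.84 with DESeq2 size factors, and these factors move the median of all genes by 0.56 and 0.57.

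**Figure D2:**
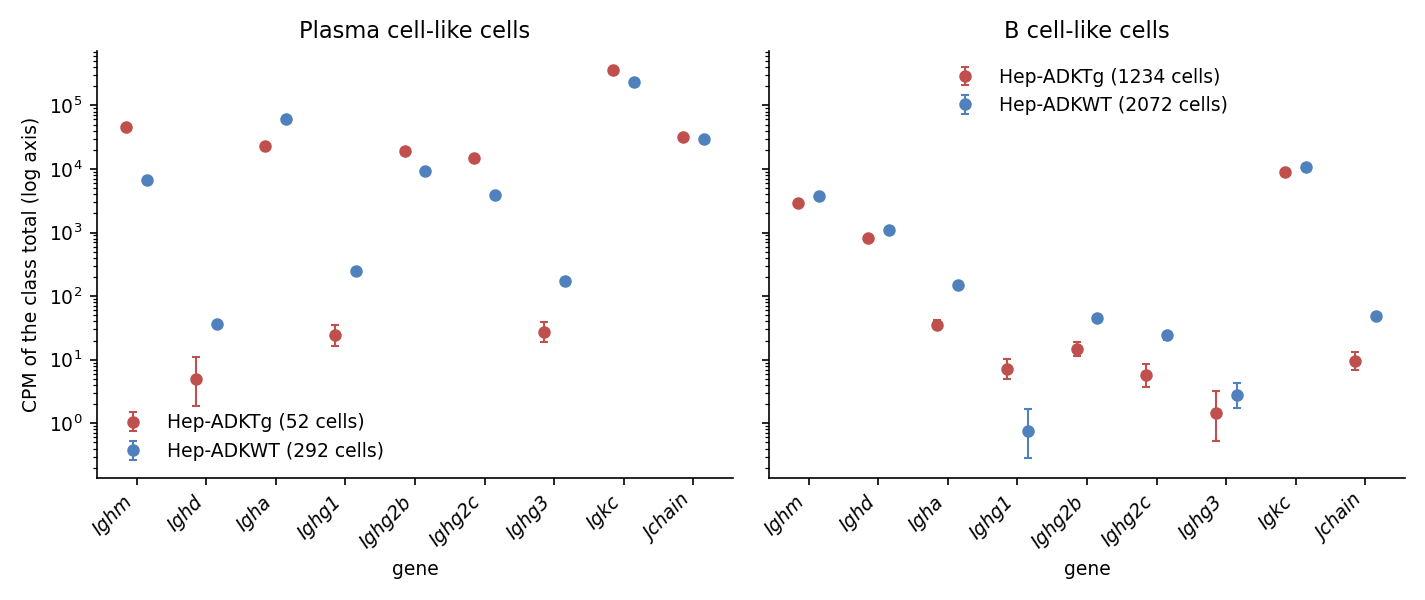
Levels of the 9 genes in plasma cell-like and B cell-like cells, in CPM of the class total on a log axis, 1 point per library with its 95% Poisson interval where that is wider than the point. Ighm is higher and Igha lower in Hep-ADKTg among plasma cell-like cells, while in B cell-like cells Ighm, Ighd and Igkc differ by less than 2-fold and the switched classes and Jchain are low.

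The light chain and the J chain are shared by the classes. Igkc, the kappa chain, stood at 357002 CPM (355933–358074) in Hep-ADKTg and 232071 CPM (231751–232392) in Hep-ADKWT, a log2 ratio of 0.62. It was detected in every plasma cell-like cell of both libraries. Lambda chains outnumbered kappa in 2 of 52 Hep-ADKTg cells and 12 of 292 Hep-ADKWT cells. Of the other constant genes, Iglc1 stood at 14518 CPM in Hep-ADKTg and 11105 CPM in Hep-ADKWT, Iglc2 at 6018 and 3059 CPM, and Iglc3 at 509 and 693 CPM. Ighe, the IgE heavy chain, had no UMI in plasma cell-like cells, where 3 UMIs, the floor used here, would be 2.51 CPM in Hep-ADKTg and 0.345 CPM in Hep-ADKWT.

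Jchain was also detected in every plasma cell-like cell, whatever its class. Its level was 31403 CPM (31086–31722) in Hep-ADKTg and 29407 CPM (29293–29521) in Hep-ADKWT, a log2 ratio of 0.09 that ranged from −0.15 to 0.67 over 13 alternatives and changed sign in 2 of them. Among IgM, IgA, IgG2b and IgG2c cells, Jchain relative to summed heavy chain UMIs was highest in the IgA cells of both libraries. Per 100 heavy chain UMIs there were 42.9 Jchain UMIs in IgA cells of Hep-ADKTg and 41.1 in those of Hep-ADKWT. IgM cells held 34.4 per 100 in Hep-ADKTg and 25.6 in Hep-ADKWT. IgG2b cells held 17.3 and 20.5, and IgG2c cells 16.2 and 22.7, in Hep-ADKTg and Hep-ADKWT. IgG2b and IgG2c cells, whose heavy chains lack the tail cysteine shown above, thus still carried Jchain transcripts. By summed UMIs their ratio was lower than in the IgA and IgM cells of the same library. By medians per cell, IgM and IgG2c cells of Hep-ADKWT were close, at 24.1 and 22.5. The 2 IgG1 cells of Hep-ADKWT held 826 and 39.8 per 100 and its IgG3 cell 26.1, so the lower ratio is not read for IgG as a whole. Jchain outnumbered heavy chain UMIs in 0 of 52 Hep-ADKTg cells and in 7 of 292 Hep-ADKWT cells, 5 of them IgA.

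The 9 genes made up 49.1% of all UMIs of plasma cell-like cells in Hep-ADKTg and 34.2% in Hep-ADKWT. Per cell the share ranged from 13.7% to 71.1% with a median of 56.2% in Hep-ADKTg, and from 3.41% to 82.3% with a median of 33.5% in Hep-ADKWT. The ranges overlap. The difference was largest within IgA cells, whose median was 57.0% in Hep-ADKTg and 30.8% in Hep-ADKWT. IgM cells had medians of 55.8% in Hep-ADKTg and 52.3% in Hep-ADKWT.

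Proliferating plasma cell-like cells gave a smaller share of their UMIs to the 9 genes, and most of them were in Hep-ADKWT. With proliferation taken as at least 3 UMIs of 10 cell cycle genes, 2 of 52 plasma cell-like cells were proliferating in Hep-ADKTg (3.85%, 0.469–13.2) and 101 of 292 in Hep-ADKWT (34.6%, 29.1–40.4). Among IgA cells these were 0 of 15 in Hep-ADKTg (0%, 0–21.8) and 85 of 231 in Hep-ADKWT (36.8%, 30.6–43.4). Proliferating IgA cells of Hep-ADKWT gave a median of 18.4% of their UMIs to the 9 genes, and the other IgA cells 37.0%. The cut of 3 UMIs is not scaled to depth, and median depths were 23225.5 UMIs in Hep-ADKTg and 27948 in Hep-ADKWT. At equal depth, a cell with a smaller share from the 9 genes has more other UMIs in which to reach the cut. On the UMIs that are not immunoglobulin or Jchain, the 10 genes summed to 148 CPM in Hep-ADKTg and 1055 CPM in Hep-ADKWT. The part of depth in the shares of proliferating cells was not tested. Without proliferating cells, IgA was called in 30.6% of cells (18.3–45.4) in Hep-ADKTg and 77.7% (71.0–83.4) in Hep-ADKWT, and IgM in 46.9% and 6.91%. Per 100 B cell-like cells, IgA cells that were not proliferating stood at 1.22 in Hep-ADKTg and 7.05 in Hep-ADKWT.

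**Figure D3:**
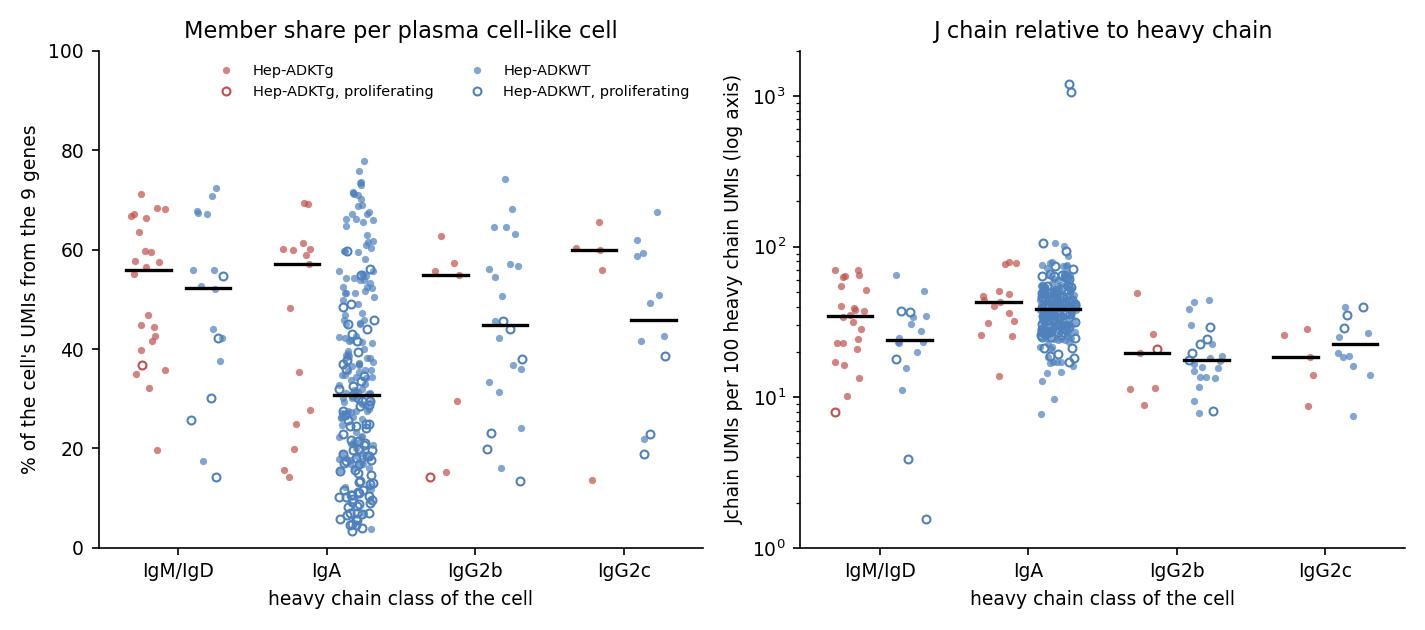
Single plasma cell-like cells by heavy chain class, with open circles for cells holding at least 3 UMIs of the proliferation list and bars at the medians: left, percent of the cell's UMIs from the 9 genes, and right, Jchain UMIs per 100 heavy chain UMIs on a log axis. The IgA cells of Hep-ADKWT spread down to 3.41%, and their proliferating cells have a median of 18.4% against 37.0% for the others.

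The genes around antibody secretion were taken from lists chosen with earlier results of these data known. Of the 10 proliferation genes, 10 of 10 were lower in Hep-ADKTg plasma cell-like cells, with a median log2 ratio of −3.60 beside −0.58 for all genes. Ube2c, which tags mitotic proteins for degradation, stood at 1.67 CPM (2 UMIs) in Hep-ADKTg and 106 CPM in Hep-ADKWT, and Ccnb2, a mitotic cyclin, at 0.835 CPM (1 UMI) and 27.1 CPM. The smallest differences were those of Tyms, for thymidylate synthesis, at 3.34 and 13.3 CPM, and of Stmn1, a tubulin regulator, at 16.7 and 93.8 CPM.

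Of the 16 genes of the antibody secreting programme, 5 were higher and 11 lower in Hep-ADKTg, with a median of −0.24, while on the UMIs that are not immunoglobulin or Jchain 13 were higher and the median was 0.16. Fkbp11, a folding factor of the secretory pathway, stood at 230.5 CPM (204–259) in Hep-ADKTg and 192 CPM (182.9–201.5) in Hep-ADKWT. Creld2, induced by stress of the endoplasmic reticulum, stood at 448 CPM in Hep-ADKTg and 376 CPM in Hep-ADKWT. Tnfrsf17, the survival receptor BCMA, had the lowest ratio of the list at 133 CPM (113–155) in Hep-ADKTg and 243 CPM (233–254) in Hep-ADKWT. Within a heavy chain class the direction was opposite, in CPM of the UMIs that are not immunoglobulin or Jchain. In IgA cells Tnfrsf17 stood at 592 CPM (480–723) in Hep-ADKTg and 432 CPM (413–451) in Hep-ADKWT. In IgM cells it stood at 204 CPM (152–267) and 143 CPM (97.5–204). The part of the class mix in the pooled ratio was not tested. Ell2, an elongation factor that favours the secreted form of the heavy chain, stood at 117 and 172 CPM.

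Of all genes with at least 50 UMIs in the class, 7182 of 8321 were lower in Hep-ADKTg, and 5228 of 8221 on the UMIs that are not immunoglobulin or Jchain, so counts of lower genes in a list are read beside these. Homing genes were lower in 10 of 11, with a median of −1.09, and in 9 of 11 with a median of −0.69 on the UMIs that are not immunoglobulin or Jchain. Itgb7, the integrin subunit of gut homing, stood at 48.4 CPM (36.8–62.6) in Hep-ADKTg and 188 CPM (179–198) in Hep-ADKWT. Cxcr3, a receptor for chemokines of inflamed tissue, stood at 14.2 CPM in Hep-ADKTg and 56.7 CPM in Hep-ADKWT. Cxcr4, the receptor that holds plasma cells in bone marrow, was the exception at 34.2 CPM (24.6–46.4) in Hep-ADKTg and 10.7 CPM (8.63–13.1) in Hep-ADKWT. Cd69, a retention molecule, was at 191 CPM in Hep-ADKTg and 191 CPM in Hep-ADKWT.

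Of the transcription factors that act on immunoglobulin genes, 12 of 12 were lower in Hep-ADKTg (median −0.77), and 8 of 12 on the UMIs that are not immunoglobulin or Jchain (median −0.37), a share near that of all genes. Spi1, a factor of B and myeloid cells, stood at 13.4 CPM in Hep-ADKTg and 15.8 CPM in Hep-ADKWT, and Spib, a related factor, at 0.835 CPM (1 UMI) and 5.75 CPM. Pax5, the factor that holds B cell identity, had 1 UMI in Hep-ADKTg (0.835 CPM) and stood at 12.1 CPM in Hep-ADKWT. Irf4, needed to form plasma cells, stood at 124 CPM (105–146) in Hep-ADKTg and 150 CPM (142–159) in Hep-ADKWT. Survival receptors and ligands were lower in 6 of 6 (median −0.84), receptor complex genes in 11 of 13 (−0.71) and class switching genes in 5 of 5 (−1.32). On the UMIs that are not immunoglobulin or Jchain these counts were 5 of 6, 9 of 13 and 4 of 5, where the median of all other genes was −0.17. The medians of these lists there were −0.44, −0.31 and −0.92, in the same order. The lists hold few genes, and no direction particular to them is read from these counts.

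Markers of other cell types in the plasma cell-like class also differed. The 8 erythroid markers summed to 52.6 CPM in Hep-ADKTg, with 2 at 0, and to 8067 CPM in Hep-ADKWT, with none at 0. The 10 hepatocyte markers summed to 2684 CPM in Hep-ADKTg and 705 CPM in Hep-ADKWT, the 11 B cell markers to 760 and 1162 CPM, and the 10 T cell markers to 500.2 and 1187 CPM. Their part in the differences of this class was not tested.

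IgA and IgM cells of 1 library can be set side by side without the difference between libraries. Levels here are CPM of the UMIs that are not immunoglobulin or Jchain. Tnfrsf17 was higher in IgA than in IgM cells of Hep-ADKTg, at 592 and 204 CPM, with a log2 ratio of 1.54 (1.04–2.05). It was also higher in IgA than in IgM cells of Hep-ADKWT, at 432 and 143 CPM (1.59, 1.08–2.15). Ccr10, a homing receptor of IgA plasma cells, stood at 147 CPM in IgA and 31.4 CPM in IgM cells of Hep-ADKTg, and at 133 CPM in IgA cells of Hep-ADKWT with no UMI in their IgM cells.

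Other homing genes differed in either direction. Itga4, the partner of Itgb7, had a log2 ratio of IgA over IgM cells of 1.22 (0.57–1.90) in Hep-ADKTg and 0.79 (0.45–1.16) in Hep-ADKWT. Itgb7 itself had 0.80 (−0.03–1.64) in Hep-ADKTg and 1.61 (1.02–2.27) in Hep-ADKWT. Itgb1, another integrin subunit, went the other way, with 6.11 CPM (1 UMI) in IgA and 86.2 CPM in IgM cells of Hep-ADKTg, and 126 and 338 CPM in IgA and IgM cells of Hep-ADKWT. Cxcr4 had −0.94 (−2.76–0.59) in Hep-ADKTg and −2.32 (−3.17 to −1.36) in Hep-ADKWT, and Cxcr3 −1.17 (−4.47–1.23) and −0.84 (−1.35 to −0.28). S1pr1, a receptor for exit from tissue, had 1.86 (0.39–3.53) in Hep-ADKTg and 1.22 (0.09–2.68) in Hep-ADKWT. Xbp1, the regulator of the secretory programme, had −0.74 (−0.98 to −0.49) in Hep-ADKTg and −0.32 (−0.46 to −0.18) in Hep-ADKWT. The part of class in the differences between libraries in these genes was not tested.

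B cell-like cells were nearly all unswitched in both libraries. IgM/IgD was called in 1206 of 1213 Hep-ADKTg cells (99.4%, 98.8–99.8) and 2032 of 2046 Hep-ADKWT cells (99.3%, 98.9–99.6). Switched cells numbered 7 in Hep-ADKTg (0.577%, 0.232–1.19) and 14 in Hep-ADKWT (0.684%, 0.375–1.15). The intervals overlap. Of the switched cells, 4 were IgA and 3 IgG2b in Hep-ADKTg, and 5 were IgA, 7 IgG2b and 2 IgG2c in Hep-ADKWT.

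Ighm stood at 2879 CPM (2828–2932) in Hep-ADKTg B cell-like cells and 3760 CPM (3717–3803) in Hep-ADKWT ones, a log2 ratio of −0.39. Ighd stood at 826 CPM (798–854) in Hep-ADKTg and 1111 CPM (1088–1135) in Hep-ADKWT, a log2 ratio of −0.43. The mature B cell pair was kept in proportion, with 28.7 Ighd UMIs per 100 Ighm UMIs in Hep-ADKTg and 29.6 in Hep-ADKWT. Both were detected in 85.3% of the Hep-ADKTg cells and 91.6% of the Hep-ADKWT cells, whose median depths were 3064 and 3462 UMIs.

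Igkc stood at 9076 CPM (8984–9168) in Hep-ADKTg and 10817 CPM (10744–10890) in Hep-ADKWT, a log2 ratio of −0.25. The lambda constant genes Iglc1, Iglc2 and Iglc3 had log2 ratios of −0.44, −0.42 and −0.33. Lambda outnumbered kappa in 7.95% of Hep-ADKTg cells (6.50–9.60) and 8.55% of Hep-ADKWT cells (7.38–9.84). All genes of the class had a median log2 ratio of −0.15, and hepatocyte markers took 1.39% of its UMIs in Hep-ADKTg and 0.295% in Hep-ADKWT. The log2 ratio of Ighm was −0.24 with TMM or DESeq2 factors, −0.29 without the UMIs of hepatocyte genes, and −0.15 within the cluster that holds most of the Hep-ADKTg cells.

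The switched classes and Jchain were low in B cell-like cells. Igha stood at 35.4 CPM (29.9–41.6) in Hep-ADKTg and 147 CPM (139–156) in Hep-ADKWT, and a UMI of it was found in 4.62% and 38.7% of the cells. In T, NK or ILC lymphocyte-like cells, which do not express it, the share was 2.43% in Hep-ADKTg and 45.7% in Hep-ADKWT, at median depths of 4202 and 5595 UMIs. With cells thinned to 1000 UMIs the share was 2.11% in Hep-ADKTg and 14.0% in Hep-ADKWT B cell-like cells, beside 0.740% and 10.1% in T, NK or ILC lymphocyte-like cells. Jchain stood at 9.69 CPM (6.92–13.2) in Hep-ADKTg and 48.9 CPM (44.1–54.0) in Hep-ADKWT. With a minimum of 1000 UMIs and the cells clustered again, which gave 1368 Hep-ADKTg and 2063 Hep-ADKWT B cell-like cells, the log2 ratio of Igha was 1.014 and that of Jchain 0.63, against −2.06 and −2.33 over the B cell-like cells used here, and the cause was not tested.

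Ighg2b stood at 14.8 and 45.4 CPM in Hep-ADKTg and Hep-ADKWT B cell-like cells, Ighg2c at 5.82 and 24.0 CPM, and Ighg3 at 1.45 and 2.81 CPM. Ighg1 was the exception, with 30 UMIs (7.27 CPM, 4.90–10.4) in 4 Hep-ADKTg cells and 6 UMIs (0.767 CPM, 0.282–1.67) in Hep-ADKWT. Of the 7 genes with at least 50 UMIs in this class, 0 were at least 2-fold higher in Hep-ADKTg, against 6.67% of all 9396 genes with at least 50 UMIs. At least 2-fold lower were 4 of 7 (Igha, Ighg2b, Ighg2c and Jchain), against 1.33%. In T, NK or ILC lymphocyte-like cells 5 of 7 were at least 2-fold lower, against 1.2%. The count is therefore not read as particular to B cell-like cells, and Igha and Jchain changed sign with at least 1000 UMIs.

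Genes of the receptor complex that carries surface IgM are read beside all genes of the class, of which 6391 of 9396 were lower in Hep-ADKTg. Of 14 receptor complex and signalling genes, 12 were lower in Hep-ADKTg B cell-like cells and none by as much as 2-fold, with a median of −0.33. Cd79a stood at 2225 CPM (2180–2271) in Hep-ADKTg and 2799 CPM (2762–2836) in Hep-ADKWT. Plcg2, the phospholipase behind the receptor, was lowest at 56.5 and 90.1 CPM, followed by Cd72, an inhibitory receptor, at 94.99 and 128 CPM. Cd81, a coreceptor subunit, was highest at 193 and 181 CPM, and Btk, the receptor's kinase, stood at 117 and 114 CPM.

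Of 12 transcription factors, 12 were lower in Hep-ADKTg B cell-like cells (median −0.43, beside −0.15 for all genes), and of 12 measured genes of the antibody secreting programme 5 were higher and 7 lower (median −0.02). A further cluster with markers of both B and T cells, 139 Hep-ADKTg and 195 Hep-ADKWT cells, was left unnamed. Its cells were called IgM/IgD in 134 of 137 Hep-ADKTg cells and 183 of 195 Hep-ADKWT cells.

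Immunoglobulin transcripts were also counted in the 10 other named classes with at least 50 cells in each library, and more widely in Hep-ADKWT. A UMI of Igkc was found in 16.2% to 60.8% of Hep-ADKTg cells, depending on the class, and in 70.4% to 93.3% of Hep-ADKWT cells. A UMI of Igha was found in 1.66% to 5.48% of Hep-ADKTg cells and 33.6% to 64.4% of Hep-ADKWT cells. Without thinning, the ranges of the libraries do not overlap for either gene. How many of all genes share this was not counted, and the libraries differ in depth. With cells thinned to 1000 UMIs and shallower cells left out, the Igkc range was 3.77% to 31.8% in Hep-ADKTg and 21.3% to 40.4% in Hep-ADKWT, which overlap. The Igha range was then 0% to 2.13% in Hep-ADKTg and 6.25% to 22.5% in Hep-ADKWT. Thinning left out 2632 of 4928 Hep-ADKTg and 114 of 265 Hep-ADKWT hepatocyte-like cells, 501 and 312 LSEC-like cells, 66 and 25 cells of the cluster plotted as Kupffer cell-like, and at most 151 cells of any other of these classes in a library.

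In T, NK or ILC lymphocyte-like cells, the largest such class in Hep-ADKWT, the libraries fell mostly in different clusters: of 2718 Hep-ADKTg and 4189 Hep-ADKWT cells, one cluster held 12 and 2464, another 1807 and 250, another 769 and 70, another 5 and 705 and another 17 and 515. Over the class, Igkc stood at 84.0 CPM in Hep-ADKTg and 315 CPM in Hep-ADKWT. Igha stood at 5.53 CPM in Hep-ADKTg and 116 CPM in Hep-ADKWT there, and Jchain at 6.68 and 35.04 CPM. Ighm differed less, at 132 and 157 CPM. Of 7 genes with at least 50 UMIs in this class, 0 were at least 2-fold higher in Hep-ADKTg, against 6.88% of all genes, and 5 were at least 2-fold lower, against 1.2%.

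A few cells carried most of these transcripts in some classes. In sinusoidal endothelial (LSEC-like) cells, 3 of 2179 Hep-ADKTg cells and 4 of 1647 Hep-ADKWT cells had over 1% of their UMIs from the 9 genes and held 90.1% and 85.3% of those UMIs. With them, 1 of 7 genes, Ighm, was at least 2-fold higher in Hep-ADKTg LSEC-like cells, against 5.52% of all genes, and 6 of 7 were lower, against 2.12%. Without them Ighm stood at 16.4 CPM in Hep-ADKTg and 33.9 CPM in Hep-ADKWT, a ratio of the opposite sign. In the monocyte and macrophage class of Hep-ADKWT, 1 cell held 86.6% of the UMIs of the 9 genes.

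With such cells left out, Igha was lower in Hep-ADKTg in 10 of 10 classes, with log2 ratios from −4.61 to −1.78 and a median of −4.23. Igkc was lower in 10 of 10 (−2.93 to −0.52, median −1.94), as was Jchain (−3.48 to −1.82, median −2.85). Ighg2b was lower in 10 of 10 (median −2.39) and Ighg2c in 9 of 9 (median −2.78). Ighm was lower in 10 of 10 as well, by less (−1.49 to −0.21, median −0.56). The classes of a library share its suspension, so they are not independent of each other.

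**Figure D4:**
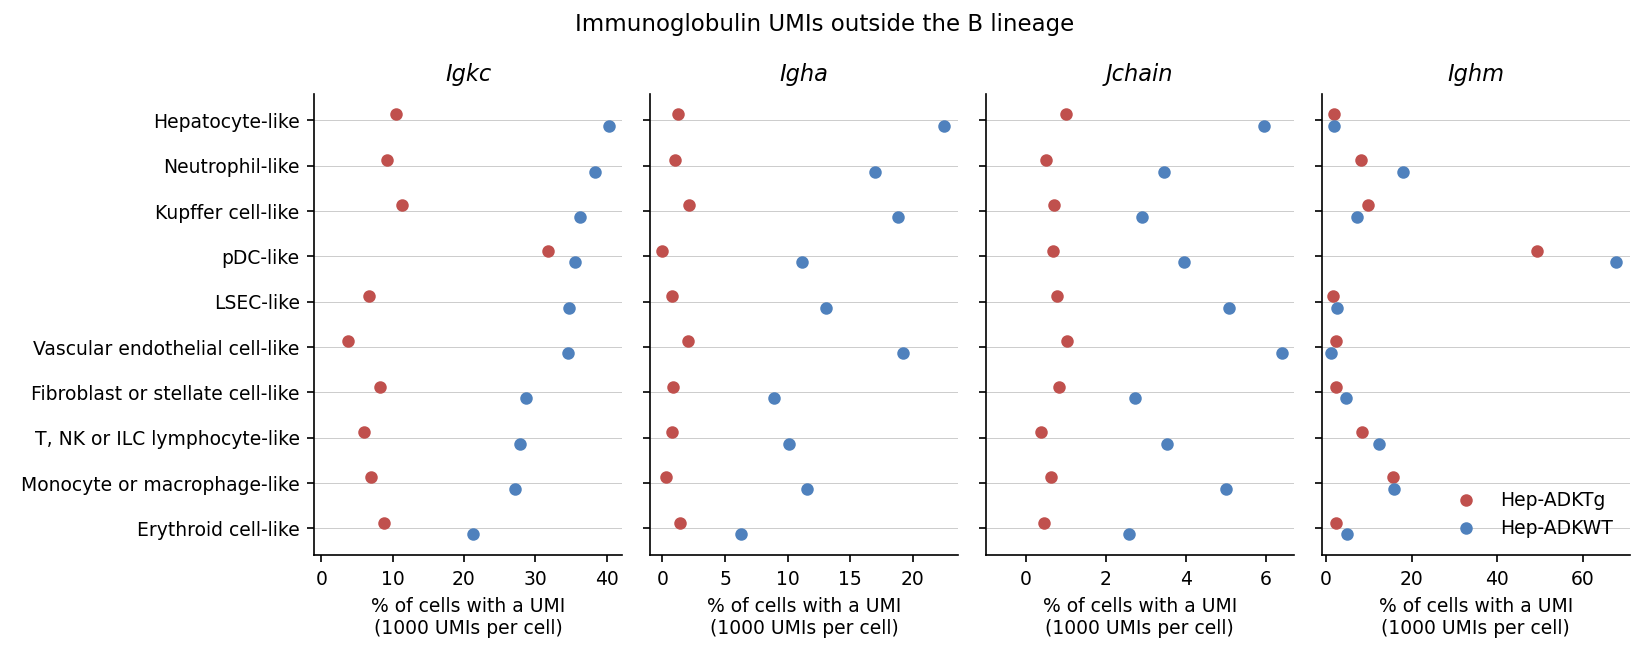
Percent of cells with a UMI of Igkc, Igha, Jchain and Ighm in the 10 named classes outside the B lineage, with each cell thinned to 1000 UMIs and shallower cells left out, 1 point per library. Igkc, Igha and Jchain lie lower in Hep-ADKTg in all 10 classes, while Ighm is lower in 8 of 10 and highest in pDC-like cells of both libraries, at 49.3% and 67.6%.

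The mix of classes outside the B lineage was set beside that of the plasma cell-like cells of the same library. With cells over 1% left out, IgA made up 75.9% to 84.3% of switched heavy chain UMIs in the 10 classes of Hep-ADKWT, and 81.7% in its plasma cell-like cells. In Hep-ADKTg, IgA made up 39.9% of the switched heavy chain UMIs of plasma cell-like cells. Over the 10 classes of Hep-ADKTg the IgA part ranged from 35.3% to 84.2%, in classes with 17 and 19 switched UMIs. The Hep-ADKTg classes with at least 80 switched UMIs were hepatocyte-like cells at 53.9%, T, NK or ILC lymphocyte-like cells at 57.8% and LSEC-like cells at 60%. There were 8.06 Igha UMIs per 100 Igkc UMIs (6.19–10.3) in T, NK or ILC lymphocyte-like cells of Hep-ADKTg and 34.1 (32.7–35.6) in those of Hep-ADKWT. Plasma cell-like cells held 6.37 in Hep-ADKTg and 26.0 in Hep-ADKWT. Over the 10 other classes the ratio ranged from 2.32 to 18.0 in Hep-ADKTg and from 10.3 to 36.1 in Hep-ADKWT. In pDC-like cells it was 4.32 in Hep-ADKTg and 10.3 in Hep-ADKWT.

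**Figure D5:**
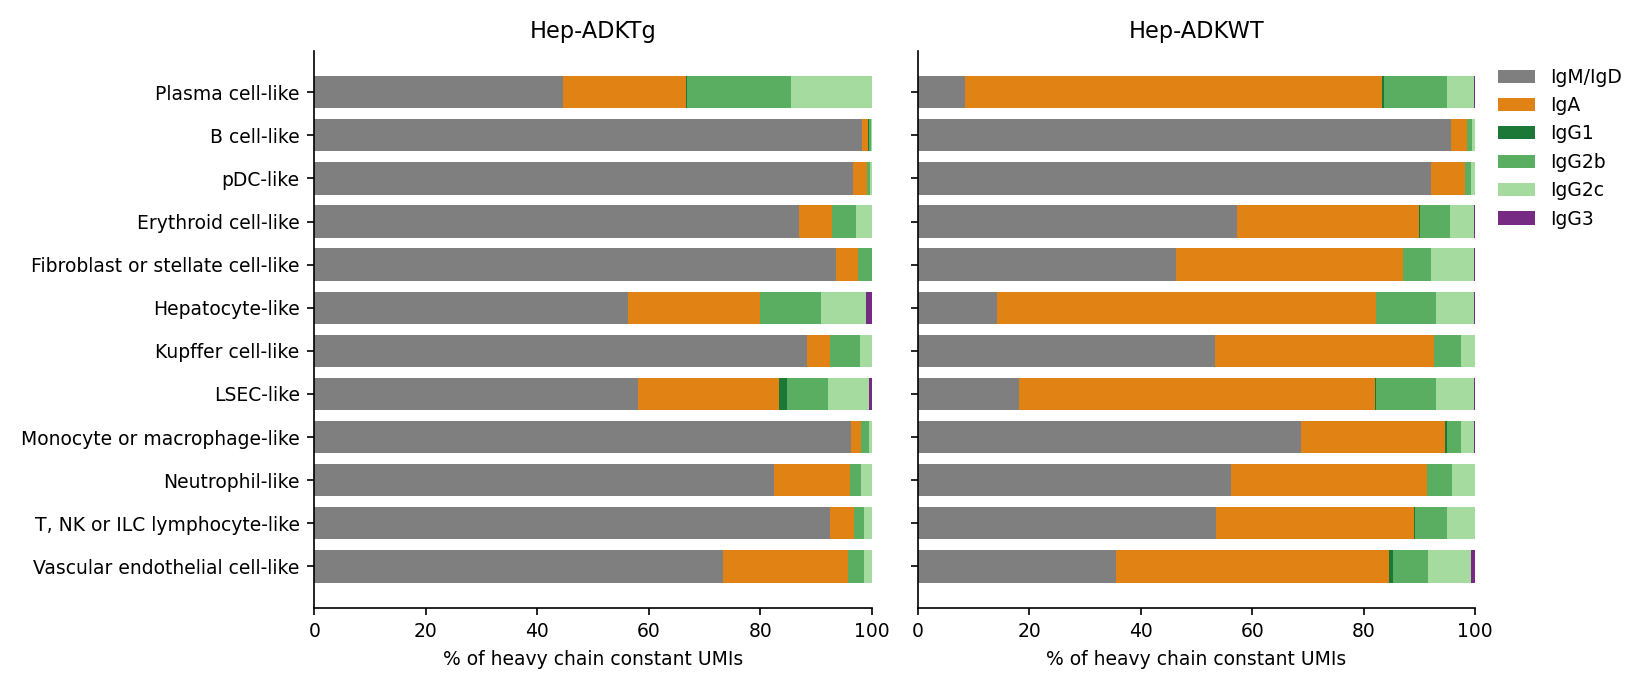
Composition of heavy chain constant UMIs by class of cell, as percent of the heavy chain UMIs of each class in each library, with cells over 1% member UMIs left out of all but plasma cell-like and B cell-like cells. IgA takes a larger part of most bars in Hep-ADKWT, and IgM/IgD most of the B cell-like and pDC-like bars in both libraries.

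Ighm outside the B lineage was highest in 1 class in both libraries. In plasmacytoid dendritic (pDC-like) cells, interferon-producing cells known to carry partly rearranged heavy chain genes, Ighm was detected in 97.3% of Hep-ADKTg cells (93.2–99.3) and 99.5% of Hep-ADKWT cells (98.2–99.9). Its level there was 964 CPM in Hep-ADKTg and 1211 CPM in Hep-ADKWT. Iglc3 was found in 88.5% of the Hep-ADKTg pDC-like cells and 88.4% of the Hep-ADKWT ones.

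Cells of the monocyte or monocyte-derived macrophage class held Ighm in 60.95% of Hep-ADKTg cells (55.3–66.4) and 72.1% of Hep-ADKWT cells (66.9–76.9), at 198 and 214 CPM. LSEC-like cells held it in 4.13% of Hep-ADKTg cells (3.33–5.05) and 7.89% of Hep-ADKWT cells (6.64–9.30). Median depths were 7521 and 9918.5 UMIs for pDC-like cells, 9413 and 12137.5 for this class, and 2562 and 4511 for LSEC-like cells. At 1000 UMIs per cell the share with Ighm was 49.3% in Hep-ADKTg and 67.6% in Hep-ADKWT pDC-like cells, 15.7% and 15.9% in this class, and 1.79% and 2.62% in LSEC-like cells. It was 8.25% and 17.9% in neutrophil-like cells and 8.53% and 12.5% in T, NK or ILC lymphocyte-like cells, so at equal depth this class did not stand apart as the pDC-like cells did.

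The receptors that bind and carry immunoglobulin were measured in the cells that bear them. Pigr, the polymeric Ig receptor, stood at 864 CPM (854–873) in hepatocyte-like cells of Hep-ADKTg and 1000.01 CPM (967–1034) in those of Hep-ADKWT. Asgr1, a hepatocyte receptor that clears desialylated glycoproteins, stood at 441 CPM (434–448) in Hep-ADKTg and 411 CPM (390–433) in Hep-ADKWT. The LSEC-like cells of the libraries lay mostly in different clusters, which held 1257 Hep-ADKTg and 73 Hep-ADKWT cells, 36 and 1044, 883 and 35, and 3 and 495. Over these cells, Fcgr2b, the inhibitory receptor for IgG complexes, stood at 2688 CPM (2648–2729) in Hep-ADKTg and 3006 CPM (2966–3047) in Hep-ADKWT. Fcgrt, the neonatal Fc receptor that recycles IgG, stood at 728 and 863 CPM there, Fcer1g, a signalling subunit of Fc receptors, at 143 and 176 CPM, and Asgr1 at 76.6 and 12.0 CPM.

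The cluster plotted as Kupffer cell-like was led by the complement genes C1qa, C1qb and C1qc, with Cx3cr1 and Ms4a7, which mark other macrophages, also among its 10 leading genes, so it is called a C1q macrophage cluster here. Fcgr4, an activating receptor for IgG2 antibodies, was itself among those leading genes. It stood at 682 CPM (623–745) in 207 Hep-ADKTg cells and 188 CPM (151–233) in 94 Hep-ADKWT cells, a log2 ratio of 1.86 (1.52–2.21). Fcgr3, another activating IgG receptor, stood at 235 CPM in Hep-ADKTg and 395 CPM in Hep-ADKWT, and Fcgr1 at 150 and 217 CPM. Of the 7 receptors with at least 50 UMIs in this class, 5 were higher and 2 lower in Hep-ADKTg, and Pigr, at 109 and 15.5 CPM, was among the higher ones, as it was in LSEC-like cells at 153 and 36.6 CPM. Hepatocyte markers also took more of the LSEC-like UMIs in Hep-ADKTg, 1.36% against 0.232%, and their part in the Pigr and Asgr1 levels was not tested.

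The genes whose levels most resembled those of each member were found over 24 points, 12 classes in each of the 2 libraries, as Pearson's r of log2(CPM + 10). The points share libraries and depth, so r is a description. Ighd was most like Fcer2a, a B cell receptor for IgE, with r of 0.98. Ighm and Igkc were most like Mzb1, a chaperone of antibody assembly, with r of 0.90 and 0.92. Igha, Ighg2b, Ighg2c and Jchain were each most like Eaf2, with r of 0.78, 0.96, 0.97 and 0.86. Ighg1 and Ighg3 were most like Ccr10, with r of 0.96 and 0.98. Outside plasma cell-like cells Ighg1 reached at most 7.27 CPM and Ighg3 at most 2.81 CPM. Both are below the 10 CPM added, so these r rest mostly on the plasma cell-like points.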

How the data were processed

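The deposited values are whole-number UMI counts per gene and barcode, made by the authors. The submitters' processing notes name Cell Ranger 6.1.2, R 4.1.0, Seurat 4.0.2 and the mouse build GRCm38 (mm10), while the file headers name Cell Ranger 5.0.1. The series text also mentions correction for ambient RNA and integration. The deposited counts are whole and were taken as uncorrected.

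Cells were kept from a minimum of 500 UMIs and 200 genes, with mitochondrial UMIs no higher than 20%. The automatic doublet threshold of Scrublet marked 0 cells, so, after seeing the data, cells with a score above 0.2 were removed (404 in Hep-ADKTg and 479 in Hep-ADKWT). Cells were clustered with scanpy 1.11.5 and leidenalg 0.10.2 (2000 variable genes, 30 components, 15 neighbours, resolution 1) without immunoglobulin genes and Jchain. The rule that names clusters from markers was set after seeing the data, and a class is called by its markers with the ending -like.

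Counts were summed per class and library. Levels are CPM with exact Poisson intervals, ratios have exact conditional binomial intervals and shares have Clopper-Pearson intervals, all at 95%. With 1 library per group there is no test between groups. Ratios of genes with at least 50 UMIs in a class entered the counts of lists. Size factors from edgeR 4.0.16 and DESeq2 1.42.0 were used as alternative scalings of the counts. The intervals were tried on simulated counts that hold counting error only, so that trial does not speak to the spread between animals. Genes named from a list are among its 2 highest and 2 lowest ratios in the class, except Cd79a and Fcgr2b, named for their roles, and the listed genes compared between IgA and IgM cells. Some lists are given by counts alone. The 9 genes and the lists were chosen with earlier results of these data known. Of 32285 gene IDs, 32158 are in GENCODE M21, which gave coordinates and sequences.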

Additional observations from a re-analysis of the deposited data

Results flagged for a closer look

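For 6 of the 9 genes the Hep-ADKTg over Hep-ADKWT ratio had opposite signs in plasma cell-like and B cell-like cells. The share of all genes with opposite signs was not computed, so this count is not read as particular to these genes. The difference between the classes was not tested, and there is 1 library per group. Ighm had a log2 ratio of 2.75 in plasma cell-like cells and −0.39 in B cell-like cells, a difference of 3.14. Ighg2b had 1.06 and −1.62, a difference of 2.68, and Ighg2c had 1.94 and −2.05, a difference of 3.99. Igkc had 0.62 and −0.25, a difference of 0.87. Jchain had 0.09 and −2.33, a difference of 2.43. Its sign held in 11 of 13 alternatives in plasma cell-like cells and in 12 of 13 in B cell-like cells. Ighg1 went the other way with −3.35 and 3.24, a difference of −6.60, and its B cell-like value rests on 30 UMIs in 4 Hep-ADKTg cells and 6 UMIs in Hep-ADKWT. In Hep-ADKWT B cell-like cells, Ighg2b was detected in 8.88%, Ighg2c in 7.53% and Jchain in 16.2%. In its T, NK or ILC lymphocyte-like cells, which are deeper, these shares were 9.48%, 7.59% and 18.2%. In Hep-ADKTg the shares were 1.46%, 1.05% and 2.35% beside 0.993%, 0.809% and 1.91%. The part of free RNA in the B cell-like ratios of these 3 genes was not tested.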

How the results depend on the processing

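No paired analysis was possible because each group has 1 library. Of the values recomputed under the alternatives for the results that answer a comparison, 87 stayed within their interval and 39 moved. For the shares of all genes among them, a fixed band stood in for the interval. Of the values for the other results, 318 stayed within their interval or band, 162 moved and 6 changed sign. Over 12 alternatives the IgA share of called plasma cell-like cells was 22.1% to 31.5% in Hep-ADKTg and 74.8% to 80.8% in Hep-ADKWT. The share of summed UMIs gave 74.8% in Hep-ADKWT. The plasma cell-like class, of 52 Hep-ADKTg and 292 Hep-ADKWT cells as reported, changed in size with the processing. It held 51 and 260 cells with at least 1000 UMIs, and 55 and 311 with immunoglobulin genes kept in clustering. Both settings are among the 12 alternatives, and why cells changed class was not tested.

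The log2 ratio of Igha in plasma cell-like cells was −1.39 with immunoglobulin genes kept in clustering, −1.49 with at least 1000 UMIs, −0.85 with TMM factors, −0.84 with DESeq2 size factors, −1.005 without immunoglobulin in the denominator, −1.28 as a mean over cells, −1.29 thinned and −1.59 without proliferating cells, an alternative chosen after seeing the data. That of Ighm in B cell-like cells was −0.50 with at least 1000 UMIs, −0.33 with at most 10% mitochondrial UMIs, −0.42 with doublets kept, −0.24 with TMM or DESeq2 factors, −0.29 without hepatocyte genes, −0.44 thinned and −0.15 in 1 cluster, also chosen after seeing the data.

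In T, NK or ILC lymphocyte-like cells the log2 ratio of Igkc was −2.34 with immunoglobulin genes kept in clustering, −1.10 and −0.98 at resolutions 0.5 and 2.0, −3.53 with at least 1000 UMIs, −2.16 with at most 10% mitochondrial UMIs, −2.17 without cells over 1%, −1.62 without cells with a B or plasma cell marker and −0.93 as a mean over cells. Igha there was −6.03 with at least 1000 UMIs.

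Switched B cell-like cells were 0% in Hep-ADKTg with at least 10 UMIs and a share of 0.8, and 1.72% in Hep-ADKTg and 4.33% in Hep-ADKWT by summed UMIs. In Hep-ADKWT they were 1.16% with at most 10% mitochondrial UMIs and 1.16% with the unnamed cluster added after seeing the data. With no minimum of 50 UMIs, the genes at least 2-fold higher and lower in Hep-ADKTg were 14.5% and 14.4% in B cell-like, 9.97% and 40.1% in plasma cell-like, 16.3% and 12.8% in T, NK or ILC lymphocyte-like, and 13.9% and 13.4% in LSEC-like cells.

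Among ratios of at least 2-fold, the sign changed in 6 cases. With at least 1000 UMIs, Igha in B cell-like cells was 1.014 and Jchain 0.63. With immunoglobulin genes kept in clustering, Igkc in LSEC-like cells was 0.22 and Jchain 0.91. Ighm in LSEC-like cells was −1.05 without cells over 1% and −0.39 without cells with a B or plasma cell marker. Among smaller ones, Jchain in plasma cell-like cells was −0.000576 with at least 1000 UMIs and −0.15 without proliferating cells, Ighm was 0.52 in T, NK or ILC lymphocyte-like cells as a mean over cells and 0.35 in the monocyte class without cells with a B or plasma cell marker, and with no minimum of 50 UMIs the B cell-like medians were 0.03 for the antibody secreting list and 0.21 for the immunoglobulin receptors. The cause was not tested. Counting intervals do not cover the spread between animals, which 1 library per group cannot give.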

Other observations

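Barcodes with under 200 genes were left out of the cells. In Hep-ADKTg there were 36, and a UMI of Igkc was found in 5.56% of them (0.680–18.7). In Hep-ADKWT there were 1873, with a median of 92.4% of UMIs from hemoglobin genes, and Igkc was found in 59.6% (57.4–61.9) and Igha in 26.6% (24.6–28.7). Those Hep-ADKWT barcodes held 37.1 Igha UMIs per 100 Igkc UMIs (34.2–40.2).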
